A study of Mus musculus with 148 samples.

Results

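The comparison described here was that of enterocyte DNA from the first intestinal segment of mice that drank lactose-containing or lactose-free milk. Segment 1 is the proximal duodenum, and its postnatal day 90 (P90) samples comprised 13 of the 148 samples of the series, chosen by their labels, with 6 in the lactose-free group (lac-) and 7 in the lactose group (LAC+). All mice were adult, and their strain is spelled C57BL/6MCrl in the strain label and C57BL/6NCrl in the growth protocol. From postnatal day 30 the mice had solid food freely and drank milk instead of water for 60 days. The LAC+ milk was organic, and about 500 ml of it received about 12 g of sucrose, whereas the lac- milk was of another brand and had no added sucrose. Lactose, brand and sucrose therefore cannot be told apart in this design. Enterocytes were released by chelation, and their DNA was converted with bisulfite, captured with padlock probes on both strands and sequenced. Each sample was DNA of many cells, so a shift in the share of a cell type and a change within cells cannot be told apart, and the assay held no expression marker by which to check the cell type. DNA modification is the percentage of reads at a cytosine that stayed unconverted, which does not separate methylation from hydroxymethylation.

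Lct encodes lactase, the brush-border enzyme that splits the milk sugar lactose, and its expression falls after weaning in most mammals. Mcm6 encodes a subunit of the helicase that unwinds DNA for replication, and it lies directly upstream of Lct on the same strand. In humans, an intron of MCM6 holds the enhancer whose variants are tied to lifelong lactase expression. The same assay also covered differentially modified regions of imprinted genes, in which as a rule the allele from one parent carries the modification, so that the level of the tissue lies near the middle of the scale.

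Libraries summed from 5.40e+07 to 1.01e+08 reads over the cytosines of the Lct-Mcm6 locus, and the median CpG of the locus had between 3077 and 7330 reads in a library. By the file names, 11 libraries were run in sequencing lane 3 and 2, lac- replicates 3 and 4, in lane 5. The names also mark all lane 3 files as merged and neither lane 5 file. What a merged file is was not stated in the sources used here. These 2 lane 5 libraries stood apart from the rest. Both were below all 4 lane 3 lac- libraries at 176 of 414 CpG rows tested in the locus and above them at 35, and both were below these 4 libraries in 7 of the 9 regions described here. Since lane 5 held lac- samples only, lane, merging and diet cannot be told apart in these 2 libraries. For region means, targets and named CpGs in segment 1, both all samples and lane 3 alone (4 lac- against 7 LAC+) are given.

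Sequences are shown for the windows to which the results refer, each 5′ to 3′ from the GRCm38.p6 reference with every CpG in capitals. The first is the stretch directly before the Lct start, the next spans the end of Mcm6 exon 13 (to the left) and the start of intron 13, and the others surround single CpGs that the text describes.
Lct upstream (chr1:128328319-128328568, minus strand): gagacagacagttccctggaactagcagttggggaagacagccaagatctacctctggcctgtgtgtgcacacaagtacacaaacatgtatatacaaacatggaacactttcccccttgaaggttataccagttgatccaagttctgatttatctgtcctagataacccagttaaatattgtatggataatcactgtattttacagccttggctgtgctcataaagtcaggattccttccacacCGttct
Mcm6 exon 13 and intron 13 (chr1:128338063-128338225, minus strand): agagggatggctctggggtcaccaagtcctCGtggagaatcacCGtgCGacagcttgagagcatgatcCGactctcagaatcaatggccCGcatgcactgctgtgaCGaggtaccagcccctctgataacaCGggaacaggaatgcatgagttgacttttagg
Lct intron 9 (chr1:128297998-128298058, minus strand): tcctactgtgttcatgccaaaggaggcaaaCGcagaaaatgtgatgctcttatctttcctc
Mcm6 intron 9 (chr1:128343815-128343883, minus strand): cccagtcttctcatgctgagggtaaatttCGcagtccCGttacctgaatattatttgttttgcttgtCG
Trappc9 (chr15:72801542-72801602, plus strand): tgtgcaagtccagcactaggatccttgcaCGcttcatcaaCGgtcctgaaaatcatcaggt
H19 (chr7:142580517-142580618, plus strand): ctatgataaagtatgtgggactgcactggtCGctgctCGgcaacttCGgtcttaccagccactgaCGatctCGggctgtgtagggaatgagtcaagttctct
The Lct upstream window holds a single CpG. AGATAA, the core read by GATA factors, which are known regulators of the lactase promoter, was searched there on both strands and found 2 times, starting 101 and 90 bases before the annotated start. Of 32851 RefSeq promoter windows of this length, 9.99% held it.

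At the level of single CpGs, no difference between diets passed the test in segment 1. A CpG row is 1 cytosine of a CpG on 1 strand, and a row was tested, as 1285 were, if 3 or more samples per diet exceeded 30 reads and the mean did not exceed 90%. The quasi-binomial test, which compares read counts while allowing for the spread between samples, called 0 of 1285 rows after Bonferroni correction at 0.01, with all samples and on lane 3. The Benjamini-Hochberg procedure at 0.05 also called 0 rows, and limma on log2 odds called 0. An unadjusted p under 0.05 was reached by 113 rows (8.79%) with all samples and by 9.03% of the rows on lane 3. Leaving out lac- replicate 6 raised the first of these shares to 16.6%, leaving out LAC+ replicate 6 lowered it to 5.84%, and leaving out lac- replicate 1 lowered the lane 3 share to 5.35%.

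Without a call, the sizes of the differences still described the locus. The mean of 641 locus CpG rows was 76.2% ± 1.19 (SD, n = 6) in lac- and 76.8% ± 0.424 (SD, n = 7) in LAC+. The exact two-sided permutation test gave p = 0.218 for this difference of 0.624 points, with a 95% interval of -0.480 to 1.67, and lane 3 alone gave -0.0212 points with p = 0.982. The lane 5 libraries had means of 74.9% and 74.9%, the lowest of the 13. Leaving out lac- replicate 6, the highest library at 78%, gave a difference of 0.988 points with p = 0.0303 in the exact permutation test. With each library left out in turn, p in that test ran from 0.0303 to 0.452. Of the 32 locus rows with a difference of 5 points or more, 29 were higher in LAC+, while on lane 3 only 11 rows differed by that much, 6 of them higher in LAC+. Outside CpGs, locus cytosines (CpH) averaged 0.726% in lac- and 0.724% in LAC+, with a 95% interval of the difference of -0.0242 to 0.0202 points and a difference of 0.00287 points on lane 3.

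**Figure D1:**
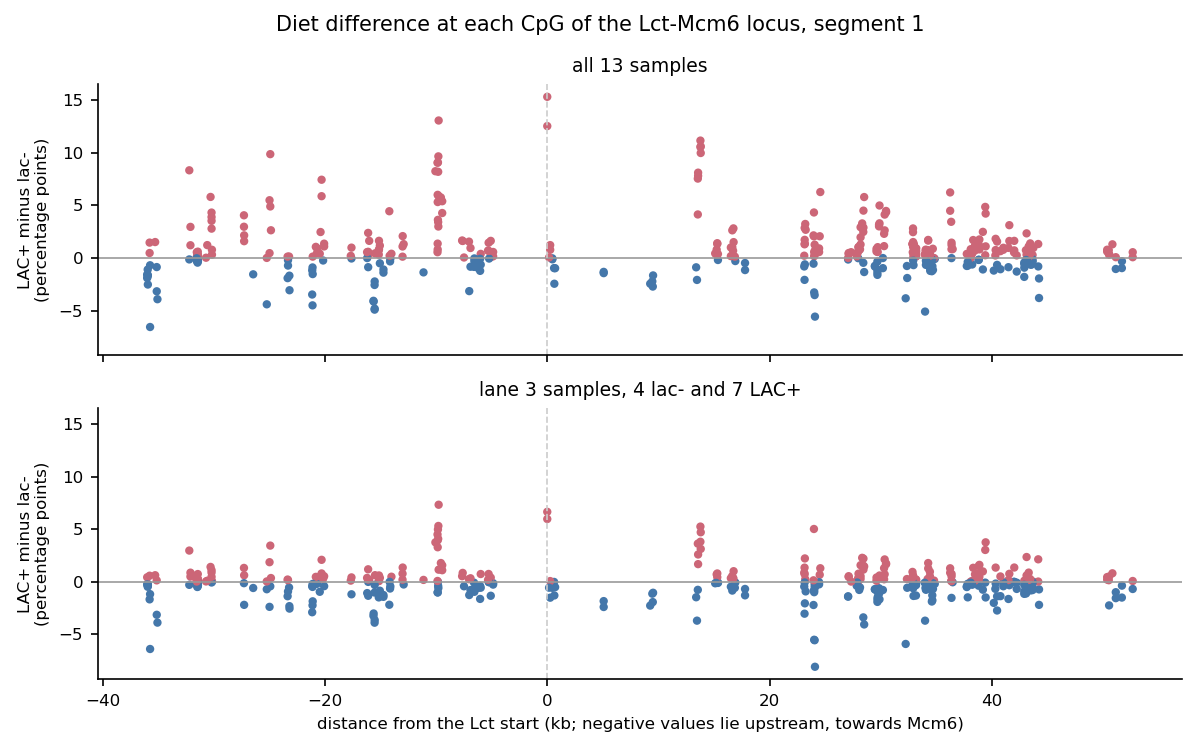
Difference in DNA modification between diets (LAC+ minus lac-, percentage points) at each of 414 CpG rows of the Lct-Mcm6 locus, against distance from the Lct start in kilobases, with negative distances towards Mcm6. The upper plot uses all 13 samples and reaches 15.3 points at the Lct upstream CpG, and the lower plot uses the lane 3 samples, where the highest value is 7.32 points.

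The Lct promoter showed the widest separation of the diets among the 9 regions. Its only CpG with enough reads lies 5 bases before the annotated start of Lct (chr1, position 128328323 on the plus strand), the CG near the end of the Lct upstream sequence. On the plus strand, with between 10207 and 23305 reads per library, modification ran from 12.3% over a median of 30.0% to 43% in lac- and from 33% over 40.1% to 45% in LAC+. Of the 6 lac- libraries, 5 lay below every LAC+ library, both of lane 5 (15.2% and 12.3%) among them, and lac- replicate 6 lay within the LAC+ range. The mean of both strands was 28.1% ± 13.3 in lac- (SD, n = 6) and 42.1% ± 5.57 in LAC+ (SD, n = 7), a difference of 13.9 points with p = 0.0268 in the exact permutation test and a Benjamini-Hochberg value of 0.241 over the 9 regions. On lane 3 the difference was 6.31 points, with a 95% interval of -3.37 to 16.1 and p = 0.139 in the exact permutation test. With each library left out in turn, the difference without restriction to lane 3 ran from 10.4 to 17.7 points. Its adjusted value over the 9 regions ran from 0.0114 to 0.523. The 17.7 points and the 0.0114, which is below 0.05, came without lac- replicate 6 and with both lane 5 libraries kept.

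Mcm6 exon 13-intron 13, the mouse counterpart of the human enhancer interval, had the next lowest p. Over 19 CpG rows, the lac- libraries had means from 41.6% over a median of 49.3% to 55.6% and the LAC+ libraries from 49.6% over 54.9% to 56.9%. Both lane 5 libraries, at 43.2% and 41.6%, were below all others, and the lane 3 lac- libraries lay among the LAC+ libraries or just below them. The difference was 5.15 points with all samples (p = 0.0536, exact permutation test) and 1.96 points on lane 3 (p = 0.279, exact permutation test). Its CpG with the lowest p, position 128338093 in intron 13, is the rightmost CG of the printed window. There, modification ran from 16.8% over 32.7% to 46.3% in lac- and from 33.7% over 44.9% to 52.6% in LAC+, and the difference of 13.1 points became 7.32 on lane 3.

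Mcm6 intron 1 and the Mcm6 promoter lie at the far end of the locus. Mcm6 intron 1 averaged 13.7% ± 3.41 in lac- (SD, n = 6) and 16.3% ± 1.55 in LAC+ (SD, n = 7), 2.52 points apart with p = 0.125 in the exact permutation test. The lane 5 libraries had 9.97% and 9.17% there, below all others, and the lane 3 difference was 0.436 points. The Mcm6 promoter, unmodified like the CpG-rich starts of most genes that all dividing cells use, had 0.749% ± 0.0495 in lac- (SD, n = 6) and 0.755% ± 0.0524 in LAC+ (SD, n = 7). Its 95% interval for the difference, -0.0547 to 0.0704 points, was the narrowest of the 9 regions, and the lane 3 difference was 0.0101 points.

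Within the Lct gene, the region means differed by less than 4 points. Lct intron 2 was at 49.4% ± 4.71 in lac- (SD, n = 6) and 53.2% ± 2.66 in LAC+ (SD, n = 7), with p = 0.107 in the exact permutation test, and the difference of 3.84 points was 0.929 on lane 3. Of its 14 rows tested, 9 were higher and 5 lower in LAC+, and on lane 3, 7 were higher and 7 lower. Its CpG with the lowest p, position 128318831, had means of 90.4% in lac- and 87.7% in LAC+. That difference was -2.72 points (-1.94 on lane 3). Lct intron 8 ran from 68.4% over 71.9% to 76.5% in lac- and from 72.9% over 73.4% to 73.9% in LAC+, so that the LAC+ libraries fell between the lac- replicates. Its difference was 1.41 points with all samples, 0 to within 0.001 points on lane 3, and 2.34 points without lac- replicate 6, where the Benjamini-Hochberg value over 9 regions was 0.0114. With each library left out in turn, that value ran from 0.0114 to 0.659. The mean covers only 3 CpG rows. Of the 4 rows tested there, 1 was higher in LAC+, by 5.80 points, and 3 were lower. The CpG with the lowest p, position 128298853, differed by -0.818 points (-0.707 on lane 3). Lct exon 9-intron 9 differed by 0.976 points (-0.0933 on lane 3) and Lct exon 1 by -0.139 points (-0.528 on lane 3), with 95% intervals of -1.01 to 2.85 and -1.12 to 0.848. Lct exon 12 differed by -0.493 points, and by -1.16 points on lane 3 with p = 0.109 in the exact permutation test. None of the 9 regions passed 0.05 after adjustment with all samples or on lane 3, where the lowest adjusted values were 0.241 and 0.627.

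**Figure D2:**
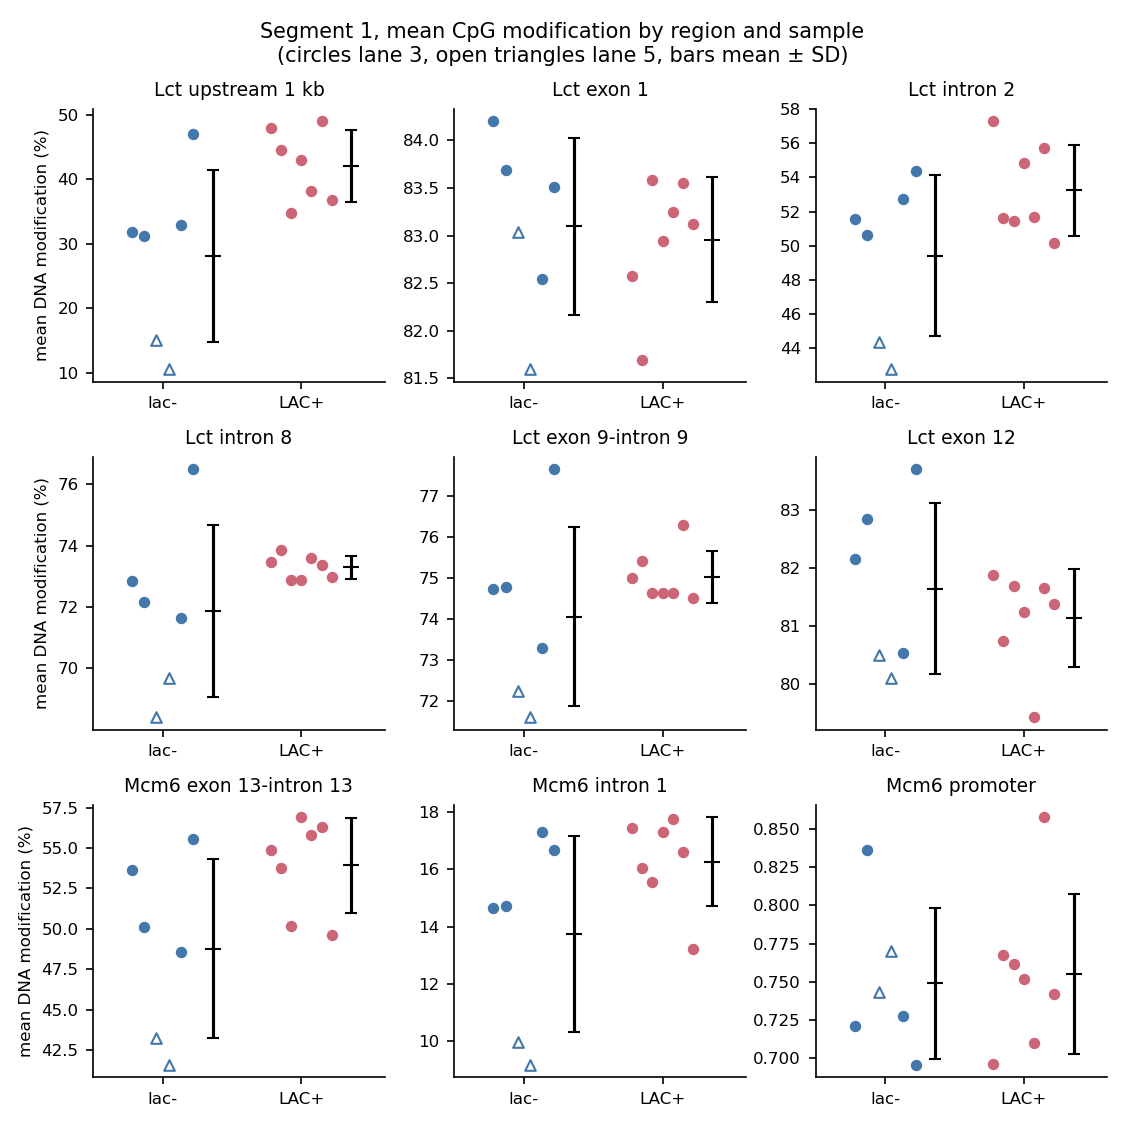
Mean CpG modification (percent) of each segment 1 sample in 9 regions of the locus, on separate axes that do not start at 0, with lane 3 libraries as circles, lane 5 libraries as open triangles and bars for mean ± SD. The 2 lane 5 lac- libraries lie below all 11 others in 6 of the 9 regions, and in Lct intron 8 the LAC+ libraries span 72.9% to 73.9%, within the lac- range.

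The low values of lac- replicates 3 and 4 were set beside the same file-name numbers, 13 and 14, in the other P90 segments. Whether a number marks the same mouse in each segment was not stated in the sources used here. In segment 4, both libraries were also run in lane 5, and Lct upstream had 4.80% and 11% against 38.2% to 49.7% in the other 5 lac- libraries. In segment 8, where both were run in lane 7, the values were 21.8% and 10.0% against 23.4% to 30.3%. At Lct upstream, both were below the other lac- libraries in that lane too, by less than in lane 5. In segment 3, number 13 (lane 7) had 7.97% and number 14 (lane 3) had 8.11%, again below the lowest of the others at 9.16%. In segment 7, number 14 (lane 7) had 9.92%, below the lowest of the others at 10.8%. Mcm6 exon 13-intron 13 did not follow this in every segment: number 13 was the highest of its group in segment 3, at 68.2%. The part of the lane, or of the merging of files, in the segment 1 values was not tested.

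Single CpGs of the locus were also named, by a low p outside these regions or because the diets did not overlap. A pair of CpGs 8 bases apart in Mcm6 intron 9, the left 2 CGs of its printed sequence, was lower in LAC+. At position 128343853, lac- ran from 87.4% over 92.4% to 94.2% and LAC+ from 84% over 86.2% to 91.5%, a difference of -4.92 points that was -3.90 on lane 3. At position 128343845 the difference was -4.82 points (-3.65 on lane 3), and both rows come from largely the same reads. The differences at the first of these rows were also negative in segments 3, 4, 7 and 8, from -5.00 to -0.427 points. At Lct intron 16, position 128285421, the means were 90.9% and 89.1%, and the difference of -1.80 points was -1.16 on lane 3. The CpG of Lct intron 9 at position 128298028, within the Lct exon 9-intron 9 region, was the only one of 1285 rows (0.0778%) at which every LAC+ library exceeded every lac- library. It was at 2.90% to 4.13% in lac- and at 4.24% to 6.57% in LAC+, 1.13 points apart (1.29 on lane 3), with an adjusted p of 1 in the quasi-binomial test, and the differences were of both signs in the other segments (0.888 in segment 7 and -1.05 in segment 8, for example).

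The P60 segments, from mice that drank water, gave a list of CpGs that change along the intestine without use of the milk samples. From 653 CpG rows of the locus tested, 112 differed between the 9 segments after Bonferroni correction, and their mean rose from 67.4% ± 1.87 in segment 1 (SD, n = 8) to 81.2% ± 0.914 in segment 9 (SD, n = 8). In the milk samples of segment 1 the same rows had means of 64.7% to 73.5% in lac- and 69.3% to 72.5% in LAC+. The difference of 2.07 points (p = 0.162, exact permutation test) was 0.215 points on lane 3. Of the 105 rows that were tested for diet, 0 were called, 82 were higher and 23 lower in LAC+, and 6 (5.71%) had an unadjusted p under 0.05, beside the 8.79% of all rows. Of all 414 locus rows, 148 were lower in LAC+. On lane 3, 49 of the 105 and 183 of the 414 were higher. The median difference over these 105 rows was 0.965 points, against 0.410 over the 414 locus rows and -0.0122 over all 1285, and on lane 3 it was -0.142 points.

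**Figure D3:**
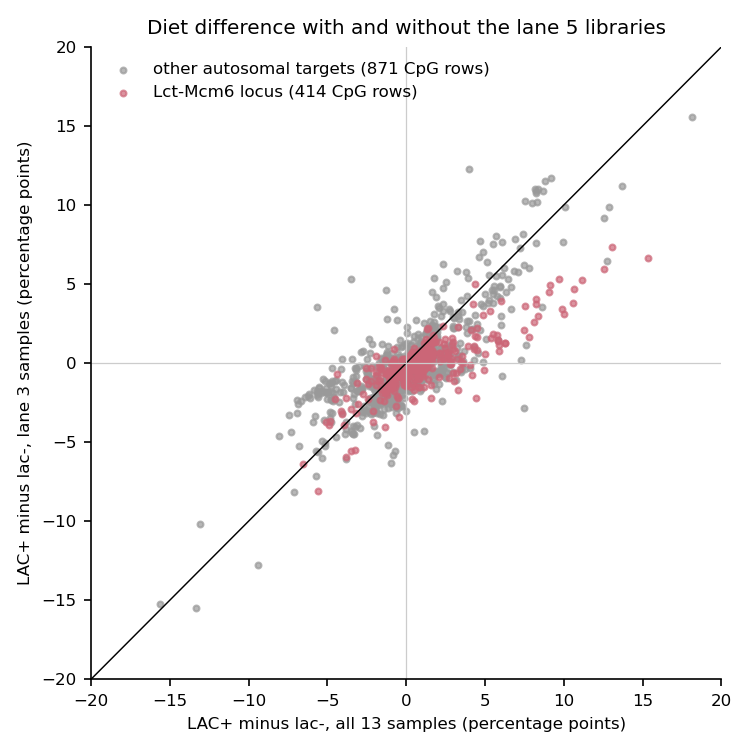
Difference between diets (LAC+ minus lac-, percentage points) at 1285 CpG rows with all 13 samples (horizontal axis) against the same difference on lane 3 (vertical axis), with the line of equality. Of the rows that differ by 5 points or more with all samples, 53 of 133 kept that size and their sign on lane 3, and locus rows with large positive values lie below the line.

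The 20 other autosomal targets are mostly imprinted regions, and their CpG rows averaged 50.5% in both diets. None passed 0.05 after the Benjamini-Hochberg procedure over 20 targets. With all samples, 10 were higher and 10 lower in LAC+, and on lane 3, 5 were higher and 15 lower. An unadjusted p under 0.05 was reached by 4 of the 20, and by 2 on lane 3. The lowest p was that of Impact, whose maternal allele is modified in mice and which encodes a regulator of translation. Over 5 CpG rows that share reads, its lac- libraries had 49% to 52.1% with a median of 50.7%, and its LAC+ libraries 51.2% to 54.1% with a median of 52.5%. The difference of 1.88 points had p = 0.00583 in the exact permutation test and an adjusted value of 0.117, and on lane 3 it was 1.56 points with p = 0.0242 in the exact permutation test.

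Trappc9 and Peg13, the latter a paternally expressed RNA inside an intron of the former, were lower in LAC+, with a difference of -1.44 points. The lac- libraries ran from 63.7% over 64.3% to 65.4% and the LAC+ libraries from 61.8% over 62.7% to 64.3%, overlapping at the edge. The p was 0.0152 with all samples and 0.0485 on lane 3 in the exact permutation test, with adjusted values of 0.124 and 0.312. The retrogene Mcts2 within H13 had 24% to 31.3% in lac- and 24.5% to 35.9% in LAC+, 5.17 points apart with p = 0.0186 in the exact permutation test, and on lane 3 the difference was 4.27 points with p = 0.0788 in the same exact test. Nespas and Gnas, at the start of the antisense RNA of the Gnas cluster, had 49% ± 1.10 in lac- (SD, n = 6) and 51.4% ± 2.43 in LAC+ (SD, n = 7). Of their 98 CpG rows, 68 were higher in LAC+, beside 370 of 871 over all rows outside the locus. The exact permutation test gave p = 0.0303 for the difference of 2.46 points between these means, and on lane 3 it gave p = 0.0606 for 2.50 points. Sgce and Peg10, paternally expressed neighbours, differed by -2.04 points (-0.839 points on lane 3). Without LAC+ replicate 7, 3 targets were below 0.05 after adjustment: Nespas and Gnas (3.05 points, adjusted 0.0216), H13 and Mcts2 (6.37 points, adjusted 0.0216) and Impact (2.11 points, adjusted 0.0433), all by the exact permutation test. That library had the lowest H13 and Mcts2 value of its diet, 24.5%, beside 31.3% to 35.9% in the others.

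**Figure D4:**
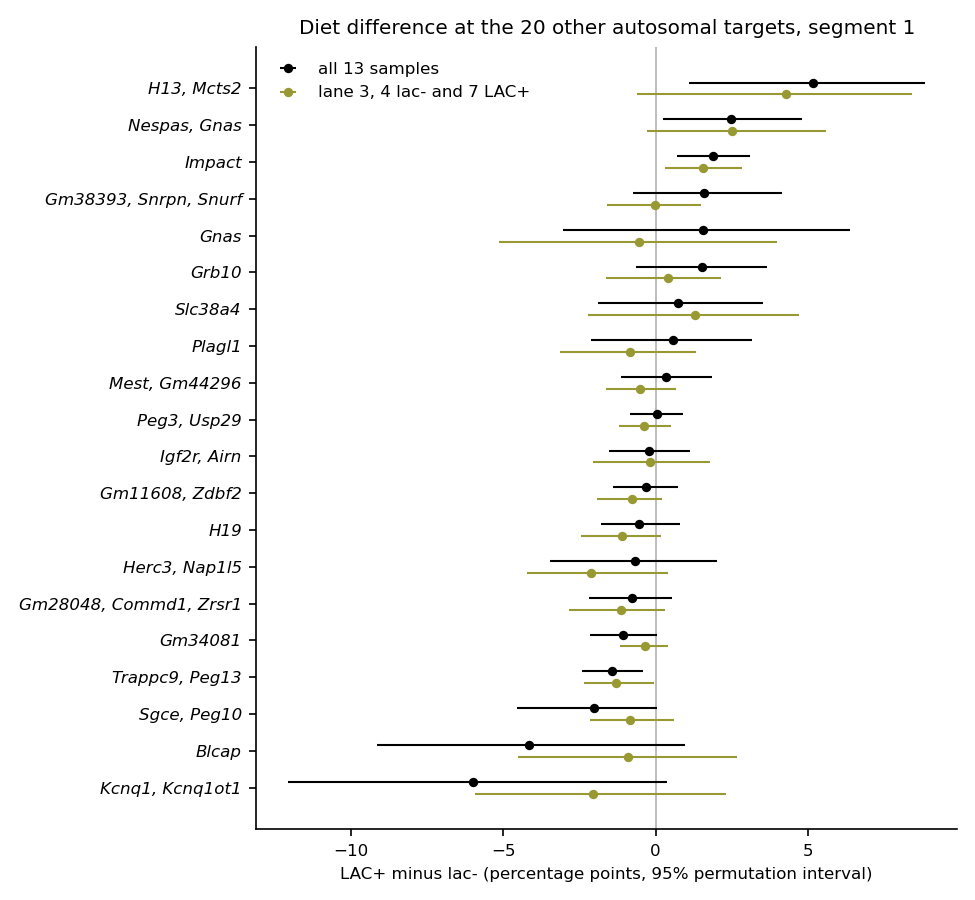
Difference between diets (LAC+ minus lac-, percentage points) with 95% permutation intervals for the mean of each of 20 other autosomal targets, in black with all 13 samples and in olive for lane 3. Intervals with all samples leave out 0 for Impact, Trappc9 and Peg13, H13 and Mcts2, and Nespas and Gnas, before adjustment over the 20.

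The lowest p of all single rows was in Trappc9, at position 72801572 of chromosome 15 on the minus strand, the left CG of its printed sequence. With a median of 22505 reads, lac- ran from 56.1% over 57.4% to 58.8% and LAC+ from 49.5% over 50.1% to 54.8%. The diets did not overlap, and the difference was -5.76 points, and it was as large without the lane 5 libraries, at -5.57. The adjusted p in the quasi-binomial test was 0.242 after Bonferroni correction. In the other segments the difference at this row had both signs, at 0.262, -2.55, 5.20 and 8.50 points in segments 3, 4, 7 and 8. A second row of this target, within Trappc9 and Peg13, position 72808369, was at 65.6% to 73.1% in lac- and at 62.2% to 65.5% in LAC+, a difference of -4.81 points that was -3.48 on lane 3, and was lower in LAC+ in segments 3, 4, 7 and 8 as well, with differences between -10.6 and -2.97 points. Peg3, an imprinted zinc finger gene, gave the third of 3 rows (0.233%) at which every LAC+ library was below every lac- library, with means of 47.9% and 46.6% and differences of -1.31 points with all samples and -1.52 on lane 3. A row of Gm11608, next to Zdbf2, had 2.48% in lac- and 1.81% in LAC+, a difference of -0.679 points that was -0.701 on lane 3.

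On lane 3, 18 of 1285 rows (1.4%) did not overlap between diets, 16 of them (1.25% of the rows) lower in LAC+ and 2 (0.156%) higher. With all samples, 4 rows (0.311%) did not overlap. The 2 shares cannot be compared directly, since fewer samples separate more easily by chance. The smallest possible p of the exact permutation test, reached without overlap, is 0.00606 for 4 against 7 and 0.00117 for 6 against 7. Of the 18 lane 3 rows, 5 were in the H19 target, the imprinting control region upstream of the RNA gene H19, which keeps Igf2 silent on the maternal allele. The 4 H19 rows with the lowest p, chosen after their values were seen, are 4 of the 5 CGs of the printed H19 sequence, and they had close to the same values. At position 142580554, the lane 3 lac- libraries had 42% to 44.3% and the LAC+ libraries 35.8% to 40.7%, while the lane 5 libraries had 36.8% and 42.5%. The difference was -4.51 points on lane 3 and -3.40 with all samples, and the lowest adjusted p on lane 3 was 1 in the quasi-binomial test. Over the whole H19 target of 59 rows, 51 were lower in LAC+ on lane 3, beside 562 of 871 over all rows outside the locus. On lane 3 the mean of the H19 target differed by -1.12 points (p = 0.0727, exact permutation test). With all samples it differed by -0.531 points (p = 0.364, exact permutation test). One Nespas and Gnas row, position 174295315, had the reverse direction, 43.3% ± 3.49 in lane 3 lac- (SD, n = 4) against 51.3% ± 3.55 in LAC+ (SD, n = 7), while a lane 5 lac- library had 57.2%.

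**Figure D5:**
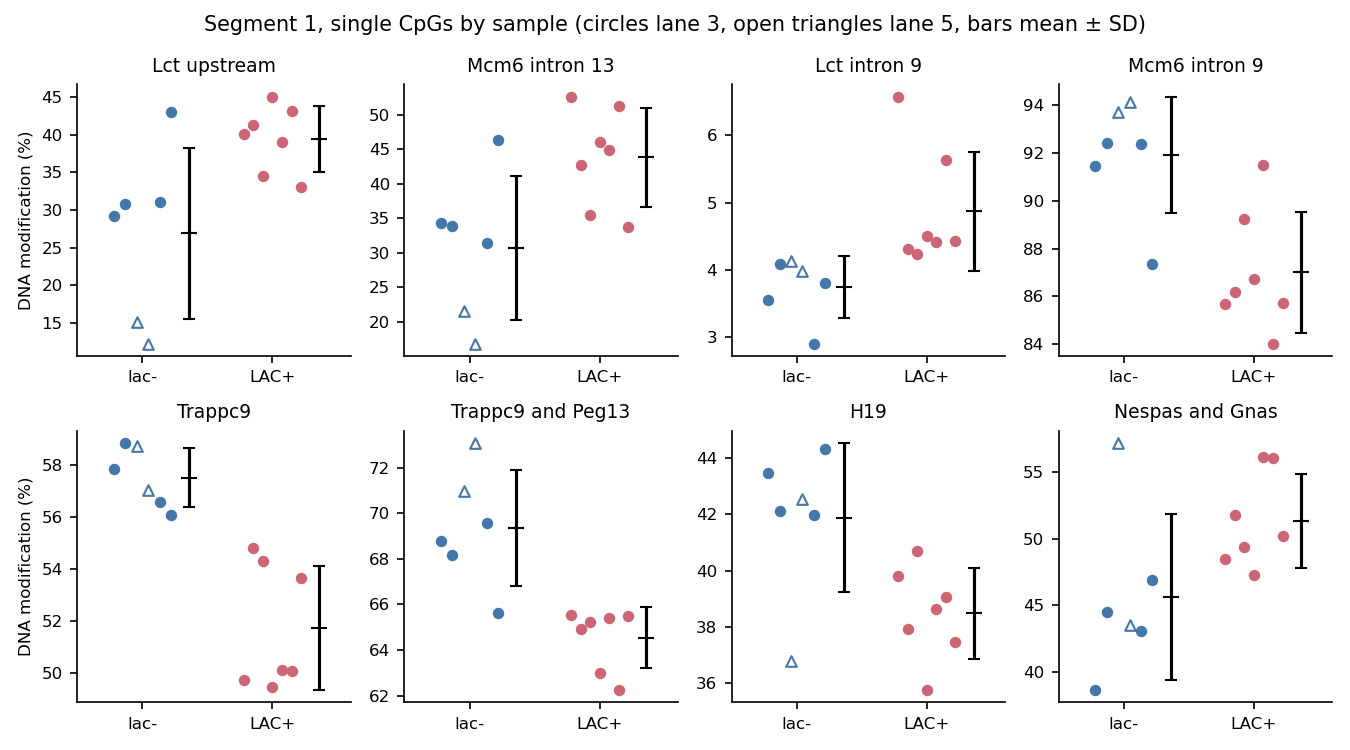
DNA modification (percent) at 8 single CpGs in each segment 1 sample, on separate axes that do not start at 0, with lane 3 libraries as circles, lane 5 libraries as open triangles and bars for mean ± SD. At Trappc9 the lac- samples lie at 56.1% to 58.8% and all LAC+ samples below, whereas at Lct upstream and Mcm6 intron 13 the lane 5 libraries are the lowest points.

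Segment 1 was last set against segments 4, 7 and 8 at the regions for which a diet effect by segment was a question of the study. At Lct exon 12 the difference between diets was -0.493 points in segment 1 and -2.01, -3.90 and -3.38 points in segments 4, 7 and 8. It was -3.35 points in segment 3, which was not part of the test. The test of the interaction, in which diets were permuted within segments, gave a permutation p = 0.0485 for segment 8 and p = 0.0565 for segment 7, and no interaction was below 0.05 after adjustment over 9 tests. The lowest adjusted value was 0.227. That test takes the segments as separate samples. Within file-name numbers, which may not mark the same mouse, the Lct exon 12 interactions were -2.97 points (segment 8) and -3.19 points (segment 7). The permutation p within numbers was 0.0233 and 0.0429, and the lowest adjusted value over the 9 tests was 0.105. With merged files only, which left 1 lac- library each in segments 7 and 8, the segment 8 interaction of -2.89 points turned to 0.549, and those of Lct intron 8 turned to 0.162 and 0.00120 in segments 7 and 8. Lct intron 8 differed by 1.41 points in segment 1, by 0.434 and 0.233 points in segments 3 and 4, and by -0.578 and -0.683 points in segments 7 and 8, with an interaction permutation p of 0.0757 for segment 8. Its CpG at position 128298853 was lower in LAC+ in segments 1, 3, 4, 7 and 8, at -0.818, -2.73, -0.558, -2.25 and -3.61 points. The differences at Lct intron 2 were 3.84 points in segment 1 and 5.15, 2.53 and 1.91 points in segments 4, 7 and 8, and the lowest permutation p of its interactions was 0.503. These segment 1 differences include the lane 5 libraries. On lane 3 they were -1.16 points at Lct exon 12, -0.000331 at Lct intron 8 and 0.929 at Lct intron 2. At Lct upstream, which was not part of this test, LAC+ was higher by 13.9 points in segment 1 and by 19.2, 14.4, 13 and 12.2 points in segments 3, 4, 7 and 8. The spread was wide, with SDs of 10.1 (lac-) and 28.7 (LAC+) in segment 3 and of 18.5 and 13.8 in segment 4. On lane 3 the segment 1 difference was 6.31 points. The low file-name numbers 13 and 14 were among the lac- libraries of segments 3, 4 and 8 too. Number 14 was also among those of segment 7, so the segments are not shown to be independent.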

How the data were processed

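DNA modification was measured by bisulfite padlock-probe sequencing in 6 lac- and 7 LAC+ samples of P90 segment 1. The submitters' processing notes name Trimmomatic 0.32, Bismark and GRCm38/mm10, and how the degenerate bases of the probes were used is not given in the sources used here. The deposited files hold counts of modified and unmodified reads that the authors obtained at each cytosine, with no normalization. Reads without molecular identifiers in use are not independent molecules, so depth bounds counting error only. The first line of nearly every file was a row run together, not of a CpG, and was skipped.

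Percent modification was computed at CpG rows with more than 30 reads. Rows were tested where at least 3 samples per diet passed and the mean was at most 90%, by a quasi-binomial F test of read counts, Bonferroni-corrected at 0.01 over 1285 rows. Means over regions and targets, from rows with more than 30 reads in all 13 samples, were compared by exact two-sided permutation tests (smallest possible p 0.00117 for 6 against 7 and 0.00606 for 4 against 7), with 95% intervals from the shifts these tests did not reject. Interactions used 100000 permutations. The labels do not say that replicates were separate mice, so p-values measure the spread between these samples. Adjacent CpGs and the strands of 1 CpG can share reads and are not replicates. Targets were CpGs less than 5 kb apart, named from GENCODE M21, as were exons of Lct and Mcm6. Alternatives were other read limits, strands summed, pooled reads, limma 3.58.1 on log2 odds (pseudocount 0.5), a lane term, replicate blocks and each library left out. Of these procedures, the quasi-binomial test and the exact permutation test were tried on simulated data. The software was Python 3.11.15 and R 4.3.3.

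Named CpGs were those with the lowest p in each region, the 3 lowest elsewhere in the locus and in the other targets, and, per direction, the 3 largest differences without overlap, and named targets the 5 with the lowest p. Members, lists and regions were chosen with earlier results of these data known.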

Additional observations from a re-analysis of the deposited data

Results flagged for a closer look

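In 4 target means a single library lay far from the others of its diet by Dixon's criterion, among 66 groups tested, and chance alone flags about 1 in 20 groups. At H13 and Mcts2, LAC+ replicate 7 had 24.5%, beside 31.3% to 35.9% in the other LAC+ libraries. At Sgce and Peg10, lac- replicate 4, run in lane 5, had 44.9%, beside 36.9% to 38.8% in the other lac- libraries. At Herc3 and Nap1l5, LAC+ replicate 4 had 52.4%, beside 47.5% to 49.5%. At Slc38a4, lac- replicate 1 had 42.9%, beside 48.4% to 49.8%. A different library stood out at each target.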

How the results depend on the processing

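No CpG row was called under any of the read limits, with rows above 90% kept, in the locus alone, with strands summed, with limma, with a lane term or without any single library. The largest change by processing came with the restriction to lane 3, which left merged files only. There the difference turned to -0.000331 points at Lct intron 8, -0.0933 at Lct exon 9-intron 9, -0.0212 for all locus CpGs and 0.00287 for CpHs. More than 100 reads turned the Mcm6 promoter to -0.0236 and CpHs to 0.00130 points. Pooled reads turned Lct exon 1 to 0.0952, the Mcm6 promoter to -0.0191 and CpHs to 0.00451 points. Lct exon 1 was 0.365 over P60 segment CpGs alone. With merged files only, which left 1 lac- library in each of segments 7 and 8, interactions turned to 0.549 (Lct exon 12, segment 8), 0.162 and 0.00120 (Lct intron 8, segments 7 and 8), and 3.52 and 1.37 points (Lct intron 2, segments 7 and 8). The cause of these changes was not tested.

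With each library left out, differences ranged from 10.4 to 17.7 points at Lct upstream, 0.720 to 2.34 at Lct intron 8, -0.439 to 0.0816 at Lct exon 1, -0.0109 to 0.0237 at the Mcm6 promoter, 0.364 to 0.988 for all locus CpGs and -0.00671 to 0.00409 for CpHs, and the count of targets called from 0 to 3.

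Diets share replicate numbers, and same-numbered samples deviated together with correlations from -0.162 to 0.351 (source names) and -0.188 to 0.171 (titles). So few correlations cannot exclude a pairing. The file-name numbers ran from 1 to 7 in LAC+ and from 8 to 14 in lac-, so by these no number was shared between diets. With the replicate block, 0 rows were called, 152 and 132 (titles) had p under 0.05 unadjusted, and 9.44% on lane 3. Lct upstream differed by 14.8 points and Mcm6 exon 13-intron 13 by 5.87 in the blocked comparison, without a call.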

Other observations

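The strands of the same CpGs did not separate the diets equally in Mcm6 exon 13-intron 13, a comparison chosen after the values were seen. Over 8 CpGs read on both strands, the plus strand averaged 51.1% ± 6.71 in lac- (SD, n = 6) and 59.4% ± 4.29 in LAC+ (SD, n = 7), while the minus strand averaged 37% ± 5.30 and 39.9% ± 3.17. The excess of the plus over the minus strand ran from 12.2 over a median of 14.2 to 16.6 points in lac- and from 15 over 18.1 to 26.8 points in LAC+, with lac- replicates 2 and 6 above LAC+ replicate 5, the lowest of its diet. It was 5.36 points larger in LAC+ (exact permutation test, p = 0.00466, Benjamini-Hochberg 0.0373 over 8 regions), and 4.46 points larger on lane 3 (exact permutation test, p = 0.0242, Benjamini-Hochberg 0.194). With each library left out it ranged from 4.15 to 6.11 points. Over all CpGs of the locus read on both strands the excess was 5.15 points in lac- and 5.30 in LAC+, with p = 0.0548 in the exact permutation test.

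Among 21744 cytosines outside CpGs, 1 passed the Bonferroni threshold in the quasi-binomial test. It is assigned to Impact (chromosome 18, position 12975272) but lies outside the Impact target described above, which ends at position 12974625. At this cytosine 15 of 3274 reads were modified in lac-, with modified reads in 5 of 6 libraries, and 0 of 2310 in LAC+. A test that estimates its spread from the lac- libraries alone is uncertain at such counts, and the exact permutation test over the samples gave p = 0.00932.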
